A study of Mus musculus with 6 samples.

Results

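The genes described here are the braking system of the G1 phase of the cell cycle: 4 inhibitors of the INK4 family (Cdkn2a, Cdkn2b, Cdkn2c and Cdkn2d), 2 of the CIP/KIP family (Cdkn1a and Cdkn1b), the 3 retinoblastoma family genes (Rb1, Rbl1 and Rbl2), and Mtap, a gene of methionine salvage that lies next to Cdkn2a. They were chosen by name, as all probes whose transcript accession belongs to one of these 10 genes, of 20659 genes with a probe on the array. All 10 were found, with 14 of the 39429 probes and 32 spots. RNA of 2 mouse melanoma lines, B16-F1 and D5.1G4, was hybridised to 6 one-colour Agilent arrays, 3 for each line. Cells of both lines were untreated and were grown for 24 h in RPMI-1640 with 10% fetal bovine serum from 1000000 seeded cells, to between 75% and 95% confluence. Nothing in the labels states that the 3 samples of a line came from separate cultures, and the p-values therefore measure just their spread, perhaps a technical one. Each line stands for itself alone, and the series compares them as melanomas of different tumorigenicity.

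INK4 proteins bind the kinases CDK4 and CDK6 and keep them from pairing with D-type cyclins, while CIP/KIP proteins bind and block complexes of CDK2 with cyclins E and A. With these kinases held off, the retinoblastoma proteins pRB, p107 and p130 stay underphosphorylated and keep E2F factors from switching on the genes of DNA replication. The Cdkn2a locus makes p16INK4a and, from another first exon and reading frame, ARF, which protects p53 from MDM2. It is among the loci most often lost in melanoma, and MTAP is often lost with it.

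The sequences before the INK4 genes' transcription start sites are shown because these genes split in the data, 2 not detected and 2 detected and lower in B16-F1. They are the 250 bases upstream of the start in RefSeq on GRCm38.p6, which is not the mm9 build of the array's annotation. Of the 10 members 9 had entries, with 12 starts, Rb1 being the other. Capitals mark the GC box GGGCGG and the E2F-type words TTTCCCGC, TTTGGCGC, TTTCGCGC and TTTGCCGC, on either strand, none of which overlapped here.

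Cdkn2d, chr9:21291210-21291459, minus strand: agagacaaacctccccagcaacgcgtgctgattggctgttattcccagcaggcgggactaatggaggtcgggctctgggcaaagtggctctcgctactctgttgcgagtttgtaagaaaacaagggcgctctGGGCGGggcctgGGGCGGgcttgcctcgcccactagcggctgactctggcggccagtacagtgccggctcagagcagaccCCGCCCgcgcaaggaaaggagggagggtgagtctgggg

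Cdkn2c, upstream start, chr4:109666757-109667006, minus strand: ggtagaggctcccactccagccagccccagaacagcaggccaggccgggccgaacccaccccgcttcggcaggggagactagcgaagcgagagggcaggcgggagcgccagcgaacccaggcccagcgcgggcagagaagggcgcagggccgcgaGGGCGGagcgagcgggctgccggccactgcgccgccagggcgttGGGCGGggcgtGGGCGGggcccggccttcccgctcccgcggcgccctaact

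Cdkn2a, upstream start (ARF), chr4:89294620-89294869, minus strand: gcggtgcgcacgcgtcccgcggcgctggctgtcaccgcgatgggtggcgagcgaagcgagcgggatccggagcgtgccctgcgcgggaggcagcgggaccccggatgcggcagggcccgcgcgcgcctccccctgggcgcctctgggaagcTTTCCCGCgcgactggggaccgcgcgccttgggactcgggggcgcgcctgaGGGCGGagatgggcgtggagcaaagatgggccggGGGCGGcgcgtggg

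Cdkn2a, downstream start (p16INK4a), chr4:89282193-89282442, minus strand: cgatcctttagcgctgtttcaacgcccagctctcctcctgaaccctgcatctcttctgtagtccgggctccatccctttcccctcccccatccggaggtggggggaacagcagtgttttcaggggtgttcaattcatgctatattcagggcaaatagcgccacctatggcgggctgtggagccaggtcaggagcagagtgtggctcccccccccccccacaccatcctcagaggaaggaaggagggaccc

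Cdkn2b, chr4:89311033-89311282, minus strand: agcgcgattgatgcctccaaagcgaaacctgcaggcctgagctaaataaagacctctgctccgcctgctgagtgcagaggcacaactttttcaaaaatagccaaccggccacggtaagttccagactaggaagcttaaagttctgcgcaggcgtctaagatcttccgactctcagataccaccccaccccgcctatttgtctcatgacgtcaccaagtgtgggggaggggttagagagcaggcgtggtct

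The Cdkn2d and upstream Cdkn2c windows each held 3 GC boxes, the ARF window 2, and the p16INK4a and Cdkn2b windows 0, as did the window of the downstream Cdkn2c start. Among the members outside the INK4 family, the windows of Mtap and Rbl2, both detected on all 6 arrays, held 0. Those of Cdkn1b and Rbl1 held 1, and those of Cdkn1a 2 and 0. A link of GC boxes with the levels was not tested. Of all 32851 windows of this length, 32.7% held at least 1 GC box and 8.47% at least 3. An E2F-type word stood in 2 of the 12 member windows, as the word TTTCCCGC 99 bases before the ARF start and as TTTCGCGC 18 bases before that of Rbl1, against 1.86% of all windows. This is a small count, the 12 windows belong to 9 genes, and an excess over all windows was not tested.

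Levels below are log2 of the processed intensity minus the 75th percentile of the array, so they compare arrays for 1 probe and not 1 gene with another. A spot counts as detected where the scanner software marked it well above background. Differences are B16-F1 minus D5.1G4, as the series takes D5.1G4 as its reference, fitted with limma over 18442 features and adjusted by Benjamini-Hochberg over all of them. A gene was called, and is said to have risen or fallen, at an adjusted p of 0.05 or less with a fold of at least 2. B16-F1 arrays 2 and 3 had 62.0% and 61.7% of spots detected and the other arrays 53.4% to 54.4%. Contrasts of the lines in detection carry this difference. Of the member spots 0 were saturated, and the number of arrays limits the precision. The arrays fell into 3 scans by the time in their headers. B16-F1 replicates 2 and 3 were scanned together (scan 1), B16-F1 replicate 1 with D5.1G4 replicates 2 and 3 (scan 2), and D5.1G4 replicate 1 alone (scan 3). Only scan 2 holds both lines, so it gives the within-scan values. They rest on 1 B16-F1 array against 2 D5.1G4 arrays, or against 1 where a spot was left out. The median difference of all features was -0.15 within scan 2 and -0.0042 over all arrays, and this shift enters all within-scan values. Their p-values assume that the lone array varies as the others do, and a fit with scan as a block gives the same difference from the same 3 arrays, so it is no further support. The 7 melanocyte markers looked at, among them Mitf, Sox10 and Tyr, were detected on every array. Of 4 fibroblast markers 0 were detected on all arrays of a line, while 4 of 6 leukocyte markers were in B16-F1 and 3 in D5.1G4, Ptprc being detected on 2 B16-F1 arrays and 0 D5.1G4 arrays. Of 4 endothelial markers 2 were detected on all arrays of each line, with Cdh5 and Tek on 0, and of 4 keratinocyte markers 2 were in B16-F1 and 3 in D5.1G4, with Epcam on 0. The part of other cells in the results was not tested.

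Of the 10 members 8 were detected on enough arrays to be tested. The INK4 genes Cdkn2c and Cdkn2d fell in B16-F1, and 0 members were called higher by limma (1, Rbl2, at an unadjusted p below 0.05). Of all features 8.89% were called lower, 6.28% higher and 15.2% in either direction. At adjusted p alone, with no minimum fold, 4 members were lower (Cdkn1b, Cdkn2c, Cdkn2d and Rb1) and 1 higher (Rbl2), beside 20.4% lower, 14.5% higher and 34.9% in all over the features. The median difference of the 8 was -0.39, and that of all features tested -0.0042. Of the 7 members measured on all 6 arrays, 5 had no overlap between the lines, as had 50.7% of all such features. Beside these shares, 2 of 8 called and 5 of 7 without overlap are small counts, and nothing particular to the members is read from them.

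**Figure D1:**
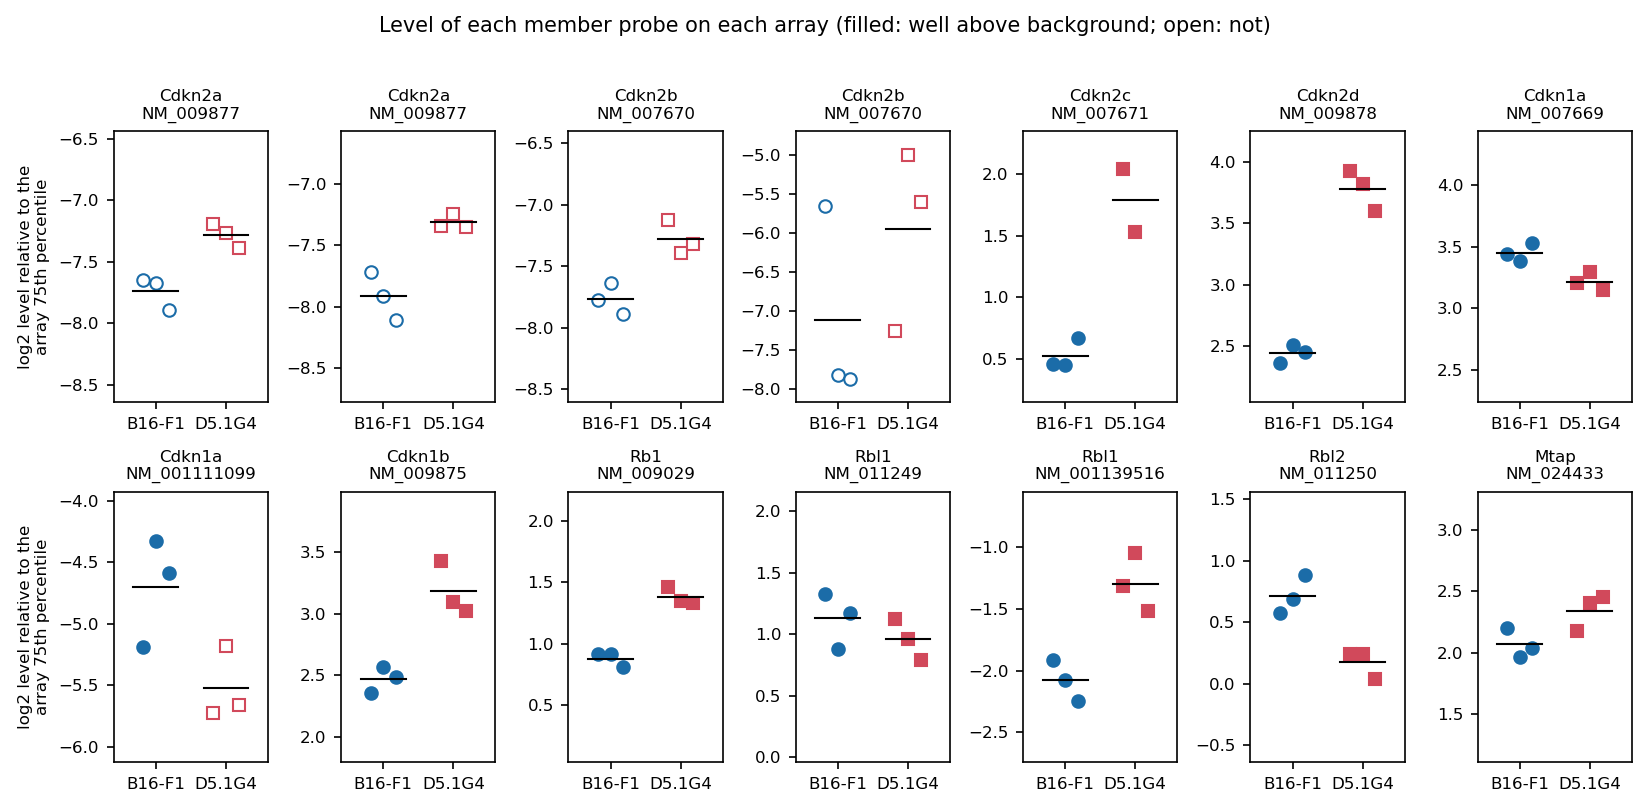
Level of each of the 14 member probes on each array (log2, relative to the array's 75th percentile), with blue circles for B16-F1, red squares for D5.1G4, bars for the mean of a line, and open symbols where the spot was not well above background. Each panel has its own axis. The 4 Cdkn2a and Cdkn2b probes are open on all arrays, and Cdkn2c and Cdkn2d show the widest gaps between detected groups.

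Cdkn2d, which encodes p19INK4d, an inhibitor of CDK4 and CDK6 whose amount varies over the cell cycle, had the largest difference of the tested members. Its level was 2.37, 2.51 and 2.45 on the B16-F1 arrays 1, 2 and 3 and 3.93, 3.82 and 3.60 on the D5.1G4 arrays. All D5.1G4 arrays were above all B16-F1 arrays. The mean was 2.44 ± 0.07 (SD, n = 3) in B16-F1 and 3.78 ± 0.17 (SD, n = 3) in D5.1G4, a 2.52-fold lower level in B16-F1 (log2 difference -1.34, SE 0.13, limma adjusted p = 0.000774). Over all features 10.2% had a difference at least this large in size. Within scan 2, on 1 B16-F1 array, the Cdkn2d difference was -1.34, where the median of all features was -0.15.

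Cdkn2c, the gene of p18INK4c, which also binds CDK6 and CDK4, was lower by a similar amount. Its level was 0.46, 0.45 and 0.67 on the B16-F1 arrays and 2.05 and 1.53 on D5.1G4 arrays 1 and 2. The spot of D5.1G4 array 3 was marked as an outlier and left out, so n = 2 there. All measured D5.1G4 arrays were above all B16-F1 arrays, and array 1 stood highest. The mean was 0.53 ± 0.12 (SD, n = 3) in B16-F1 and 1.79 ± 0.37 (SD, n = 2) in D5.1G4, 2.40-fold lower in B16-F1 (-1.26, SE 0.20, adjusted p = 0.00756). With the outlier spot kept the difference was -1.17 (adjusted p = 0.00405). The call was lost within scan 2 and with scan as a block, where the difference was -1.07. With the outlier spot left out, this difference rests on 1 array of each line. The call was also lost without the arrays of scan 1 (-1.33, on 1 B16-F1 array). Without D5.1G4 array 1 the difference was -1.0, on 1 D5.1G4 array.

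The other INK4 genes were not detected. Cdkn2a was not well above background on any of the 6 arrays with either of its probes, both of which carry the accession NM_009877. Its processed intensity was between 5.65 and 8.59 on the B16-F1 arrays and between 5.44 and 12.6 on the D5.1G4 arrays over both probes, where the lowest detected probe of an array had 24.6 to 53.6. Of the 153 negative control spots of an array, between 26.8% and 81.7% were as bright as these probes or brighter. Where the probes lie in the gene was not examined, so the p16INK4a and ARF transcripts are not told apart here. On the scaled log2 axis the Cdkn2a values of D5.1G4 lay above those of B16-F1 for both probes (-7.19 to -7.39 against -7.65 to -8.10), and the median of the negative controls was shifted the same way, -7.24, -7.27 and -7.35 on the D5.1G4 arrays and -7.75, -7.80 and -7.96 on the B16-F1 arrays. With no filter on dim probes the Cdkn2a difference was -0.45 (adjusted p = 0.0395), a value for spots not well above background.

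Cdkn2b, the gene of p15INK4b, an inhibitor that TGF-beta induces in many cell types, was likewise not detected on any array with either probe. The first probe gave 6.58, 6.85 and 8.61 in B16-F1 and 13.2, 5.00 and 6.13 in D5.1G4 as processed intensities. The second gave 28.8, 6.01 and 8.73 in B16-F1 and 12.0, 26.4 and 20.3 in D5.1G4. Its 3 brighter arrays, B16-F1 array 1 and D5.1G4 arrays 2 and 3, are those of scan 2, and on these at most 2.61% of the negative controls were as bright. The value of D5.1G4 array 2, 26.4, is above the lowest detected signal of that array, 24.6, though the spot itself was not marked as detected. The lines overlap in it, the difference with no filter was -1.16 (SE 0.84, adjusted p = 0.341), and the part of the scan in it was not tested.

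Mtap, the first gene with a probe on one side of Cdkn2a, was detected on every array. Its level was 2.20, 1.97 and 2.04 in B16-F1 and 2.18, 2.40 and 2.45 in D5.1G4. The lines overlap, since B16-F1 array 1 was above D5.1G4 array 1. The difference was -0.27 (SE 0.13, 95% confidence interval -0.59 to 0.04, adjusted p = 0.159). In the RefSeq gene order of chromosome 4, the 10 genes with a probe on each side of Cdkn2a included 9 detected on all 6 arrays and 6 on none. On one side of Cdkn2a the genes Wincr1, Ifne and Ifna4 were on no array, and on the other Cdkn2b, Dmrta1 and Izumo3 (named after their values were seen). Mtap and Zfp352 are the nearest genes on either side that were detected on all 6.

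**Figure D2:**
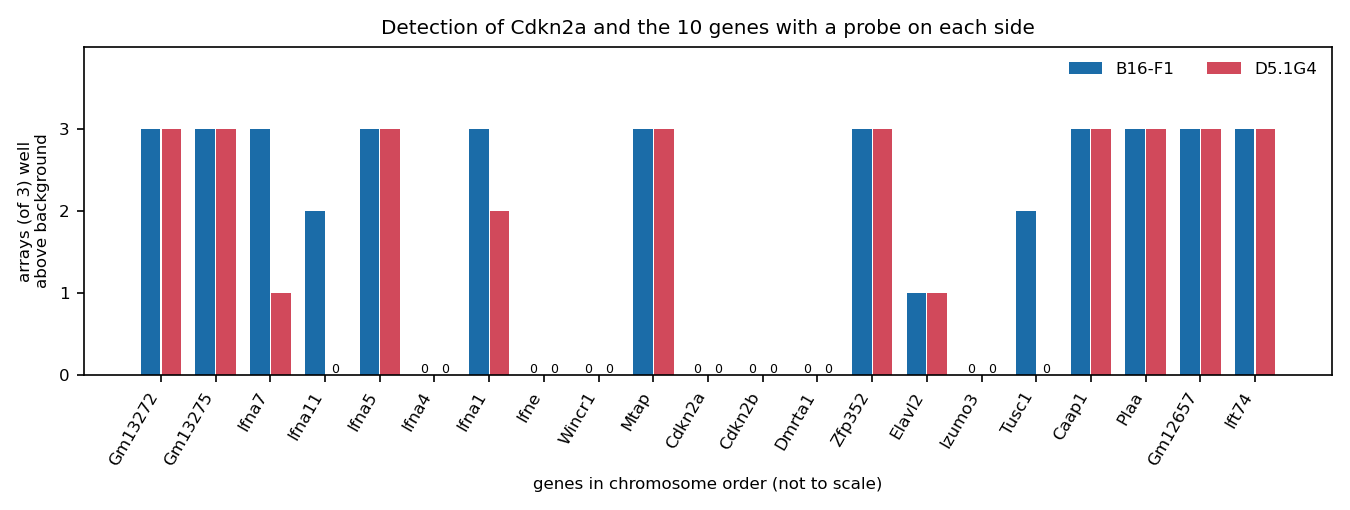
Number of arrays, of 3 in each line, on which at least 1 probe of a gene was well above background, for Cdkn2a and the 10 genes with a probe on each side of it in chromosome order (B16-F1 blue, D5.1G4 red). Cdkn2a, Cdkn2b and Dmrta1 are at 0 in both lines, between Mtap and Zfp352, which are at 3 in both.

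Of 11 tested neighbours 3 fell and 0 were called higher by limma (0 higher and 5 lower at an unadjusted p below 0.05), with a median difference of -0.27. The 11 include the member Mtap, whose own difference is this median. Of all features 8.89% fell, and at an unadjusted p below 0.05 19.2% were higher and 25.7% lower. The neighbours that fell were the predicted genes Gm13272 (-1.53, SE 0.12, adjusted p = 0.000358) and Gm13275 (-1.51, SE 0.16, adjusted p = 0.00107) and Ift74, a gene of transport within cilia (-1.41, SE 0.12, adjusted p = 0.000443). Caap1, named for its part in apoptosis, was lower with -0.64 (adjusted p = 0.00992, above 0.05 in 5 of 18 alternatives), under the minimum fold. Gm13272, Gm13275 and the Ifna genes belong to gene clusters with similar copies, between which a probe may not distinguish.

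Cdkn1a, which encodes p21, the CIP/KIP inhibitor that p53 induces, is on the array as 10 spots of 1 probe. Its level was 3.45, 3.38 and 3.53 in B16-F1 and 3.21, 3.30 and 3.15 in D5.1G4. All B16-F1 arrays were above all D5.1G4 arrays, by a small margin. The spots within an array had an SD of 0.03 to 0.09, and the arrays of a line one of 0.07 in both. The difference was 0.24 (SE 0.11, 95% confidence interval -0.03 to 0.50, adjusted p = 0.143), which did not pass. With quantile normalization it was 0.34 (adjusted p = 0.0477), which passes the adjusted p, and with the mean over both probes of the gene 0.53 (adjusted p = 0.0501). A further probe, for the transcript NM_001111099, was dim, with -5.19, -4.33 and -4.58 in B16-F1 and -5.72, -5.18 and -5.66 in D5.1G4. It was detected on the 3 B16-F1 arrays and on 0 D5.1G4 arrays, although the levels of the lines overlap. The mean of B16-F1 was 1.35-fold that of D5.1G4, with each D5.1G4 array taken at its lowest detected signal or the probe's own, whichever was higher. That value compares the means only and is no minimum for single arrays. In a fit of every probe on its own, over 22131 probes of which 15.7% were called (7.02% higher and 8.7% lower) and 35.5% passed the adjusted p alone (15.8% higher and 19.7% lower), the difference was 0.82 (SE 0.26, adjusted p = 0.0547), and within scan 2 it was 0.23 (adjusted p = 0.548). Without B16-F1 array 1 it was 1.07 (adjusted p = 0.0162), which is a call.

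Cdkn1b, the gene of p27, which restrains CDK2 and is removed by the SCF ligase with SKP2 and CKS1 as the cycle starts, was lower in B16-F1. Its level was 2.35, 2.57 and 2.48 in B16-F1 and 3.43, 3.09 and 3.02 in D5.1G4. The groups did not overlap, and D5.1G4 array 1 was the highest. The level was 1.64-fold lower in B16-F1 (-0.71, SE 0.15, adjusted p = 0.0126), under the minimum fold. Within scan 2, on 1 B16-F1 array, it was -0.71 (adjusted p = 0.057, and 0.0462 with scan as a block). The p21 and p27 differences have opposite signs, and the difference between them was not tested.

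**Figure D3:**
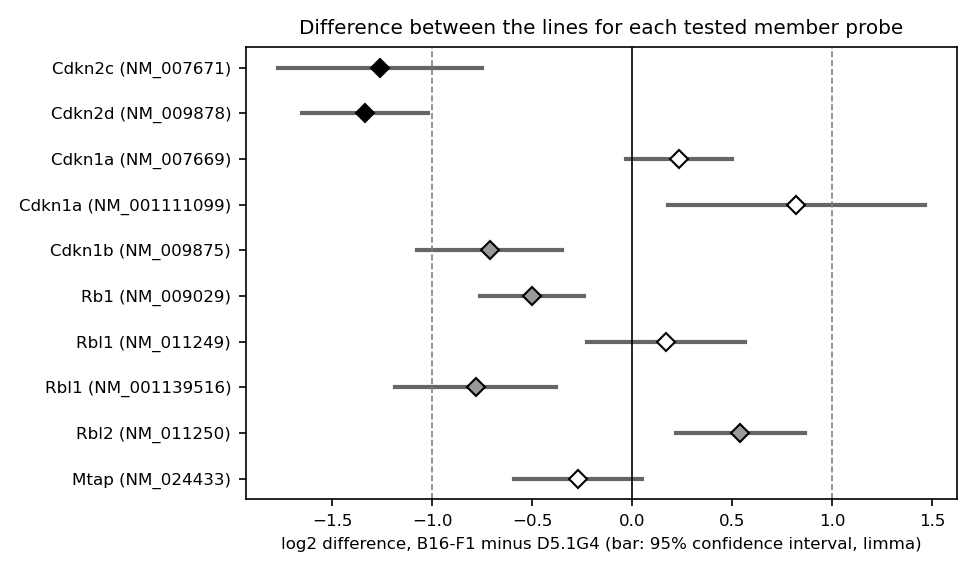
Log2 difference (B16-F1 minus D5.1G4) of each of the 10 member probes tested in the fit of single probes, with 95% confidence intervals. Black diamonds passed the adjusted p and the 2-fold minimum (dashed lines), grey ones the adjusted p alone, open ones neither, and Cdkn2c and Cdkn2d are the black ones.

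Of the retinoblastoma family, Rb1 was lower and Rbl2 higher in B16-F1, both by less than 2-fold. Rb1, which encodes pRB, is also on the array as 10 spots of 1 probe, with a spot SD of 0.04 to 0.11. Its level was 0.91, 0.92 and 0.81 in B16-F1 and 1.46, 1.34 and 1.33 in D5.1G4, with no overlap between the lines. No spot used on a B16-F1 array was above 0.99 and none used on a D5.1G4 array was under 1.165. Spots left out lay at 1.08 and 1.02 on B16-F1 array 2, at 0.86 on B16-F1 array 1 and at 0.85 on D5.1G4 array 2. The last of these is within the B16-F1 range. The level was 1.42-fold lower in B16-F1 (-0.50, SE 0.11, adjusted p = 0.0134). Within scan 2, on 1 B16-F1 array, it was -0.42 (adjusted p = 0.137).

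**Figure D4:**
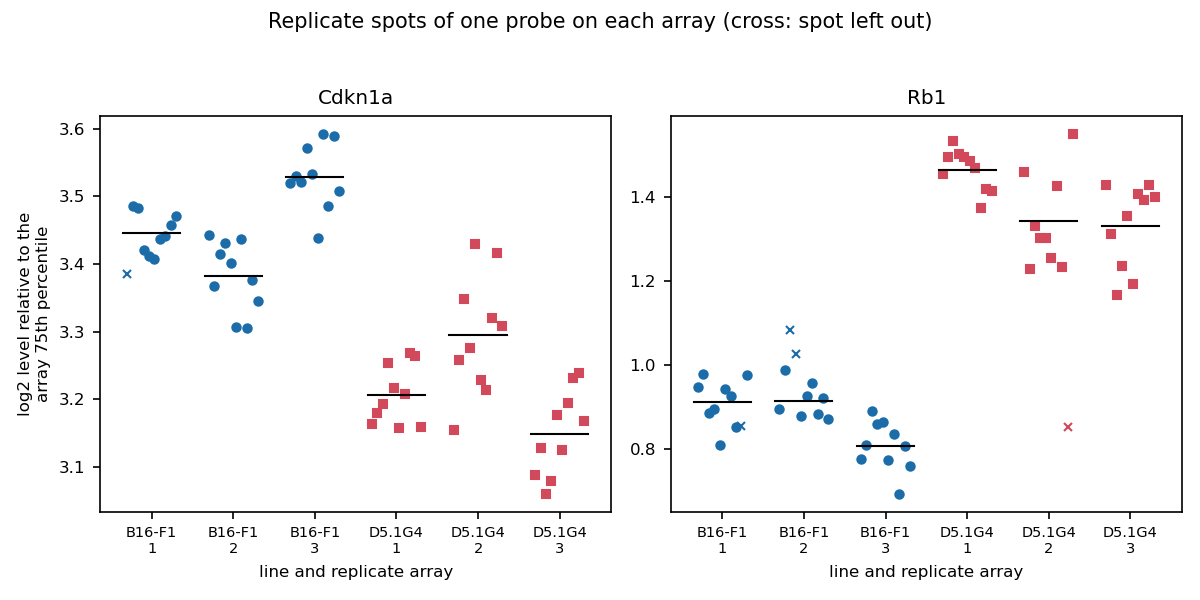
Log2 level (relative to the array's 75th percentile) of each of the 10 spots of the Cdkn1a probe (left) and the Rb1 probe (right) on every array, B16-F1 as blue circles and D5.1G4 as red squares, with crosses for spots left out and bars for the mean of the spots used. The Rb1 spots used are at most 0.99 in B16-F1 and at least 1.165 in D5.1G4, while the Cdkn1a spots of the lines lie close and in part overlap.

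Rbl2, the gene of p130, the family member that binds E2F4 and the MuvB core in resting cells, had levels of 0.58, 0.69 and 0.88 in B16-F1 and 0.25, 0.24 and 0.04 in D5.1G4. Every B16-F1 array was above every D5.1G4 array. It was 1.46-fold higher in B16-F1 (0.54, SE 0.13, adjusted p = 0.0221), and 0.44 within scan 2, on 1 B16-F1 array (adjusted p = 0.162). Without single arrays the adjusted p was above 0.05 in 4 of 6 cases, up to 0.0769 without D5.1G4 array 3, with differences of 0.46 to 0.61.

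The 2 probes of Rbl1, the gene of p107, had differences of opposite sign, of which only that of the dimmer probe passed the adjusted p. The brighter probe, for NM_011249, had levels of 1.33, 0.88 and 1.17 in B16-F1 and 1.12, 0.96 and 0.79 in D5.1G4, which overlap (0.17, SE 0.16, adjusted p = 0.458). The dimmer probe, for NM_001139516, had -1.91, -2.07 and -2.24 in B16-F1 and -1.32, -1.05 and -1.52 in D5.1G4, with no overlap. It was 1.72-fold lower in B16-F1 in the fit of single probes (-0.78, SE 0.17, adjusted p = 0.0133), and -0.63 within scan 2 (adjusted p = 0.162). The first probe minus the second, which needs no scaling between arrays, was 3.24, 2.96 and 3.42 in B16-F1 and 2.44, 2.01 and 2.31 in D5.1G4. These did not overlap, and their means differed by 0.95 (exact permutation test over the 6 arrays, 2-sided p = 0.1, the smallest 3 against 3 allows). With the mean of both probes as the value of the gene, the Rbl1 difference was -0.31 (adjusted p = 0.162).

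The other genes of the pathway moved both ways. The counts below are from the same test, where 15.2% of all features were called. Of 14 listed cyclins and kinases 12 were tested, all but Cdk6 and Ccne2. Of these 12 genes 2 rose and 1 fell, with a median of 0.17. Cyclin E1 (Ccne1), the partner of CDK2, fell by 1.33 (SE 0.13, adjusted p = 0.000919), but another probe gave -0.34, and the mean of both (-0.84) was under the minimum fold. Cdk2 rose by 1.27 (SE 0.31, adjusted p = 0.0233). That call was lost without either of 4 arrays, B16-F1 2 or 3 or D5.1G4 2 or 3 (adjusted p = 0.0691 to 0.08), with normexp background correction (0.0801), without the arrays of scan 1 (0.88, adjusted p = 0.259) and with the replicate number as a block (0.0864). Cdk7, whose product activates the CDKs, rose by 1.05 (SE 0.12, adjusted p = 0.00138), and with normexp by 0.90, under the minimum fold. Cyclin D1 (Ccnd1), the partner of CDK4 and CDK6, had a difference of 0.84 (adjusted p = 0.0107, and 0.0603 with normexp). Within scan 2 it was 1.16 (adjusted p = 0.0247), past the minimum fold but on 1 B16-F1 array.

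Of 10 tested E2F and DP factors 2 fell and 0 were called higher by limma (0 higher and 5 lower at an unadjusted p below 0.05), with a median of -0.24. E2f2, an activator whose levels rise as cells enter the cycle, fell by 1.84 (SE 0.19, adjusted p = 0.00101). E2f7, a repressor that needs no RB protein, fell by 1.50 (SE 0.14, adjusted p = 0.00067). Another E2f7 probe gave -0.46, and with the mean over probes the difference was -0.98. Its relative E2f8 (-0.78, adjusted p = 0.00537) and the E2F partner gene Tfdp2 (-0.86, adjusted p = 0.00566, though another probe gave 0.45) were under the minimum fold. The adjusted p of E2f8 and Tfdp2 was above 0.05 in 3 and 4 of 18 alternatives.

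Of 7 genes of the MuvB core and its partners 0 were called by limma (1 higher and 3 lower at an unadjusted p below 0.05), with a median of -0.28. In the fit of every probe on its own, another probe of Rbbp4 gave 1.05 (limma adjusted p = 0.00745), which passes both limits. The Rbbp4 probe that stood for the gene gave -0.28 (n = 2 in D5.1G4), and Rbbp4 is named after its values were seen. The B-Myb gene Mybl2 differed by -0.59 (adjusted p = 0.0463), where another probe gave -0.03, and Lin54, which binds DNA for the complex, by 0.53 (adjusted p = 0.0231). Their adjusted p was above 0.05 in 12 and 9 of 18 alternatives. Of 20 E2F target genes 1 fell and 0 were called higher by limma (3 higher and 8 lower at an unadjusted p below 0.05), with a median of -0.22. The proliferation marker Mki67 fell by 1.02 (SE 0.13, adjusted p = 0.00211), a value at the edge of the minimum fold, and lost its call in 8 of 18 alternatives, among them quantile normalization (-0.87), within scan 2 (-0.94) and without B16-F1 array 3 (-0.95) or D5.1G4 array 2 (-0.94). The replication licensing gene Cdc6 had -0.94 (adjusted p = 0.0106, with 0.07 from another probe), and -1.11 without D5.1G4 array 2, which passes the minimum fold. Cdc45, a part of the replicative helicase, had 0.81 (adjusted p = 0.00769), and the primase gene Prim1 -0.55 (adjusted p = 0.0282, above 0.05 in 9 of 18 alternatives). The adjusted p of Cdc6 and of Cdc45 was above 0.05 in 4 of 18 alternatives each.

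Of 13 tested regulators of the inhibitors 1 rose and 0 were called lower by limma (5 higher and 2 lower at an unadjusted p below 0.05), with a median of 0.37. Skp2, Zbtb17 and Cbx7, also listed, were not tested. Mdm4, a restraint on p53, rose by 1.13 (SE 0.16, adjusted p = 0.00346), and lost its call with normexp (0.87) and without the arrays of scan 1 (adjusted p = 0.0696). Mdm2, the ligase that removes p53 and that ARF holds back, had -0.81 (adjusted p = 0.00692, above 0.05 in 3 of 18 alternatives). Trp53 itself had 0.66 (adjusted p = 0.0389, above 0.05 in 10 of 18 alternatives). Ezh2, the Polycomb methyltransferase that can silence the Cdkn2a locus, had -0.74 (adjusted p = 0.0113, above 0.05 in 4 of 17 alternatives, n = 2 in D5.1G4).

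Among 7 genes close in function to the inhibitors 1 rose and 2 fell, with a median of -0.09. Cdkn1c, the gene of the third CIP/KIP protein, p57, fell and was detected on 0 arrays in B16-F1 and on 3 in D5.1G4 (limma adjusted p = 5.99e-05). Its D5.1G4 mean was 22.5-fold that of B16-F1 with each B16-F1 array taken at its lowest detected signal. That value compares the means only and is no minimum for single arrays. With normexp the log2 difference was -2.51 (adjusted p = 0.0601), a smaller fold than this value, which holds for the processed intensity only. Its levels of -6.80, -7.55 and -7.17 in B16-F1 and -1.49, -1.59 and -0.85 in D5.1G4 did not overlap. Cables1, which links CDKs to kinases that phosphorylate them, rose by 1.82 (SE 0.17, adjusted p = 0.000776). Gadd45a, a p53 target that checks the G2 phase, fell by 1.02 (SE 0.17, adjusted p = 0.00553), and lost its call with quantile normalization (-0.90), within scan 2 (-0.88, adjusted p = 0.062), without the arrays of scan 1 (adjusted p = 0.0855) and without B16-F1 array 3 (-0.96) or D5.1G4 array 1 (-0.89).

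**Figure D5:**
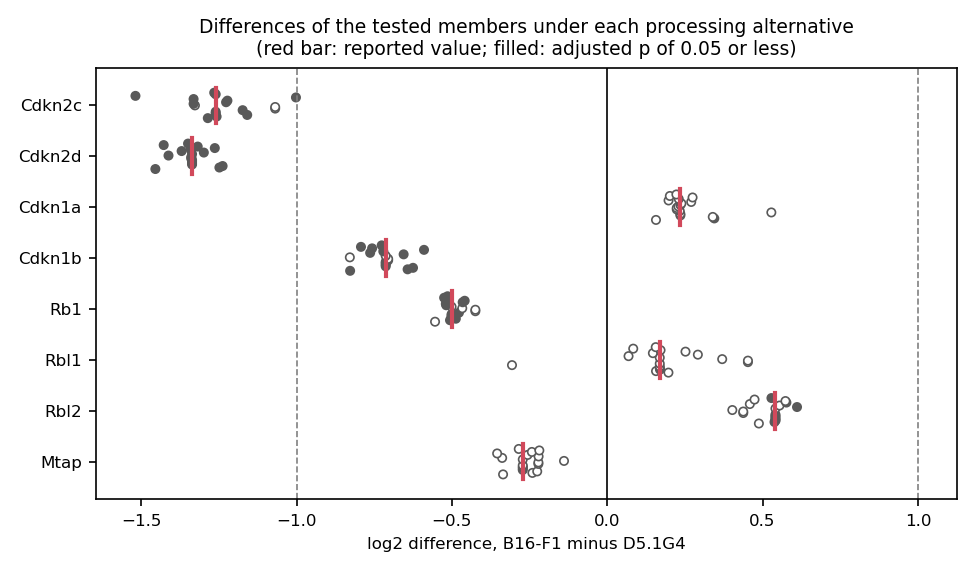
Log2 difference of the 8 tested members under the reported setting (red bars) and each processing alternative (circles, filled at an adjusted p of 0.05 or less), with dashed lines at the 2-fold minimum. Cdkn2d was beyond the minimum and filled in all of them, Cdkn2c was open in 3, and 1 of the Rbl1 values, at -0.31, lies on the other side of 0.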

How the data were processed

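The deposited scanner files hold processed and raw intensity per spot, written by Agilent Feature Extraction 11.0.1.1 for the Cy3 dye, per the file headers. That software's processed intensity had its background subtracted and trends within the array removed, per the file headers. The authors' deposited table holds log2 values of 22147 probes, with the normalization method not given in the sources used here. Samples were grouped by title.

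The log2 processed intensity minus each array's 75th percentile was used. Non-uniform and outlier spots were set to missing and the spots of a probe averaged. Accessions were matched to RefSeq symbols (GRCm38.p6), with 27234 probes matched to 1 gene, and the brightest probe stood for a gene. Features detected on at least 3 arrays were tested with limma 3.58.1 in R 4.3.3, with no covariate beside the line, and single probes in a second fit. The script was tested on simulated data, with 200 of 18442 features changed. It called 64% of those changed by 1.5 and 88% of those changed by 2.5 in log2, and 6 unchanged features.

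From each pathway list up to 4 genes at an adjusted p of 0.05 or less were named, by size of difference. Members, lists and the naming rule were chosen with earlier results of these data known. The normexp alternative used the median spot signal. Deviations of same-numbered arrays correlated at -0.39, -0.03 and -0.30, and the main fit used no pairing. Same-numbered arrays were never scanned together, so these values cannot decide whether the replicate numbers pair the samples.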

Additional observations from a re-analysis of the deposited data

How the results depend on the processing

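Cdkn2d kept its call under all 18 alternatives (-1.24 to -1.45). Cdkn2c lost it in the 3 given above and was not tested where detection on all 6 arrays was asked. The members called numbered 2, and 1 with that filter, with scan as a block, on scan 2 alone and without the arrays of scan 1; leaving out single replicates gave 2 to 2. At adjusted p alone they numbered 5, but 6 with quantile normalization and with no filter on dim probes, 4 with detection on all 6 arrays, 3 with normexp, 2 with scan as a block, 1 on scan 2 alone, 1 without the arrays of scan 1 and 2 with the replicate block, and 4 to 5 without single replicates. Features called numbered 2799, but 1271 with normexp (2530 to 3375 without single replicates, where the highest, without B16-F1 replicate 1, had 50.8% of calls higher in place of 41.4%). Listed pathway genes called numbered 13 (10 to 14 without single replicates). Rbl1 turned from 0.17 to -0.31 with the mean over its probes, as its probes differ in sign. With the replicate number as a block 2580 features were called, Cdk2 lost its call (0.0864), the members Cdkn1b, Rb1 and Rbl2 passed the adjusted p no longer (0.0623, 0.0646 and 0.0934), and 0 of 6 arrays correlated best with their own number. With scan as a block the median of all features was -0.15. Centring on the median of the features tested was added after seeing the data and changed no member's call. The Cdkn2a and Cdkn2b probes were not well above background on any array, so their differences have no interpretable size. The cause of the other changes was not tested.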
